A study of Homo sapiens with 12 samples.

Results

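Interferon stimulated genes were followed as a list of 38 genes in cells of the H9 human embryonic stem cell line that were being differentiated toward hepatocytes. The members were a given list of symbols, matched by Entrez gene number, with the deposited values of a gene's transcripts added up. All 38 were among the 23922 genes of the 12 libraries. The libraries formed 6 groups of 2: cells taken at day 7 (Hepatoblasts in the labels) or day 19 (Hepatocytes), each as ctrl with 0.1% DMSO, with 30 nM T3 or with 30 nM T4. T3 is triiodothyronine and T4 is thyroxine, the thyroid hormone that carries an additional iodine atom. All groups come from this 1 line. Whether a pair of libraries stands for separate cultures is not in the labels, so the p-values rest on a spread between libraries that may be technical. The labels give neither the time at which hormone was added nor the vehicle of the hormone.

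Interferons are secreted proteins that cells release when they sense viral nucleic acid. Type I and type III interferons act through receptor-bound JAK kinases on STAT2, which joins IRF9 in the complex ISGF3 that binds the interferon stimulated response element (ISRE) of target promoters. Type II interferon acts mainly through the gamma activated sequence (GAS). The induced genes make RNA sensors, enzymes that degrade or modify RNA, membrane proteins that block virus entry or exit, and the regulators that extend or end the response. Hepatocytes respond to type I and type III interferon, whereas pluripotent cells respond weakly and are known to hold some of these genes, IFITM genes among them, at a constant level.

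Promoter sequence is shown first because the best known shared property of these genes is the ISRE. The 160 bases before the annotated start are printed 5′ to 3′ for 6 members (RefSeq, GRCh38.p14). ISG15, IFI6, IFIT1 and IFITM3 carry 2 or 3 matches to the ISRE core (GAAA, then any 2 bases, then GAAA, on either strand), EPSTI1 carries a match although it was the member lower with both hormones on both days, and IRF9 carries the GAS letters TTCNNNGAA (either strand) instead. Capitals mark ISRE core matches in ISG15, IFI6, IFIT1, IFITM3 and EPSTI1, and the GAS match in IRF9.
ISG15 (chr1:1013337-1013496, plus strand): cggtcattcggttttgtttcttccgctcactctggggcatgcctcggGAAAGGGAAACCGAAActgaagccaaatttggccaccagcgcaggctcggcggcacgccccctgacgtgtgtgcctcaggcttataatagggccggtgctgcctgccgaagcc
IFI6 (chr1:27672193-27672352, minus strand): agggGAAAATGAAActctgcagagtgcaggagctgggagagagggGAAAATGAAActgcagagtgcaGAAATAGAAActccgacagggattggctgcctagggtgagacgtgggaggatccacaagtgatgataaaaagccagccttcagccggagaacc
IFIT1 (chr10:89392463-89392622, plus strand): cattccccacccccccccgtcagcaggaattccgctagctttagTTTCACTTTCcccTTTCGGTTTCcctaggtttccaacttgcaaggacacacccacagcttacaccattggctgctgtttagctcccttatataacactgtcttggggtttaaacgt
IFITM3 (chr11:320861-321020, minus strand): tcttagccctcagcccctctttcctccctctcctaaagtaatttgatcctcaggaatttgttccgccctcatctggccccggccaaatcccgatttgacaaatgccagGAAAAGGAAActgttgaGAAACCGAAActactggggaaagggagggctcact
IRF9 (chr14:24161105-24161264, plus strand): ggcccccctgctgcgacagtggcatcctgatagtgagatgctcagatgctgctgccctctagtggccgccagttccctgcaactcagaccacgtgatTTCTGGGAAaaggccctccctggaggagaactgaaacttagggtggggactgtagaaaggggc
EPSTI1 (chr13:42992242-42992401, minus strand): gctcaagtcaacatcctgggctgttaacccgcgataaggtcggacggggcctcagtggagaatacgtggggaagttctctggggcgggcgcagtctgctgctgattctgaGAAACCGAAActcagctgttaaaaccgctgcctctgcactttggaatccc
The RefSeq table held windows of 300 bases (250 before and 50 after a start) for 30 of the 38 members, 40 windows in all. The ISRE core was in 26 of these 40 windows and in 3.57% of all 35116 windows of that length, and 22 of the 30 members held it in at least 1 window. GAS letters were in 11 of 40 windows, against 7.66% of all windows, and in 10 members. Summed over these windows there were 8 pairs of an ISRE core and a GAS match that overlapped, and the 2 ISRE core matches of ISG15 overlap each other. Windows of 1 gene can themselves overlap, as those of IFI27 and IFI44 do, so the same site can enter these window and pair counts more than once. OAS1, IRF1, IRF9 and IFI35 held GAS letters without an ISRE core, and STAT2, HERC6, XAF1 and CMPK2 held neither in these windows. IRF7, TRIM22, IFITM2, IFIT2, MX2, OAS2, OASL and USP18 were not matched. A match is a description of letters and not a binding site, and its absence says only that these letters are not in the window.

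Libraries held 18363549 to 19306181 expected counts, and 18101 genes passed the expression filter and were tested. Of the 38 members 36 were tested. OASL and SAMD9 were too low, at 0 to 1.11 CPM (counts scaled to library size with TMM factors) in every library. Members were not equally measurable at the start: 26 reached a mean of 1 CPM in the day 7 DMSO group and 12 did not, and several of these 12 passed the filter only through their day 19 level. The spread between 2 libraries was not the same in all groups. In the day 19 T3 group 34 of the 35 members at 1 CPM or more were higher in replicate 2 than in replicate 1, with a median difference of 0.43 on the log2 scale, while 48.0% of all genes were higher there. In the other groups 34.6% to 66.7% of the members were higher in replicate 2. Counts over all members for T3 against DMSO and T4 against T3 at day 19 are given without each T3 library too, as are values of several members. Counts for parts of the members and for the other gene lists are given with all libraries only. The 10 most abundant genes took 11.7% and 12.1% of the counts in the day 19 DMSO libraries and 6.93% to 6.94% in the hormone-treated day 19 libraries. Scaling by total counts in place of TMM moved the median of all genes by -0.40 on the log2 scale for day 19 against day 7 and to 0.13 for T4 against DMSO at day 19. With that scaling 33.1% rather than 51.9% of all calls between the days were higher at day 19, and 66.1% rather than 48.9% of all calls with T4 at day 19 were higher.

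**Figure D1:**
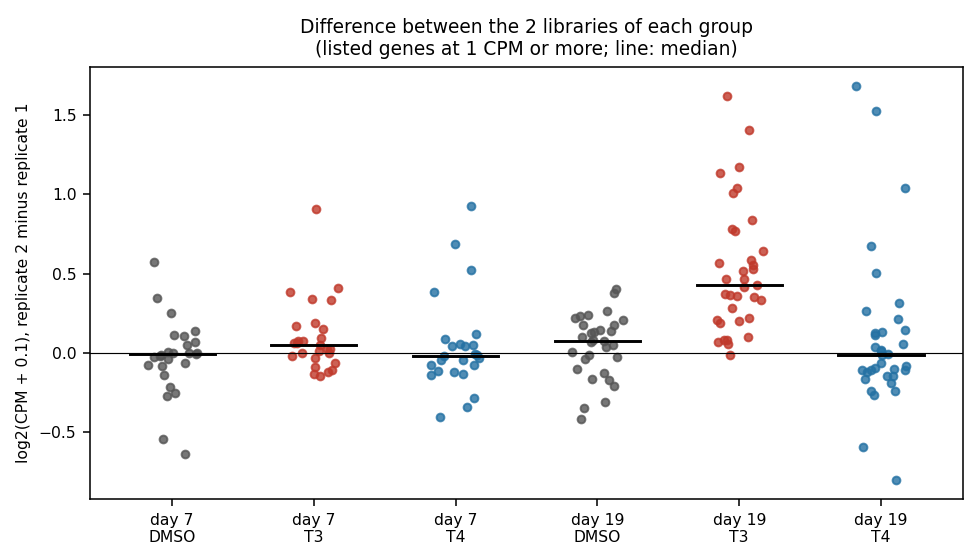
Difference between replicate 2 and replicate 1 of each group, as log2 of CPM plus 0.1, with a point for each listed gene at 1 CPM or more and a line at the median. The day 19 T3 points lie above 0 for 34 of 35 genes, with the median at 0.43, and the medians of the other groups lie between -0.02 and 0.07.

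Levels per transcript length (FPKM) set the members in a wide range. IFITM3, a membrane protein that blocks fusion of incoming viruses in endosomes, had the highest level in all 6 groups, with means of 227.7 FPKM at day 7 and 338.6 FPKM at day 19 in DMSO. The 3 IFITM genes together made up 74.4% of the summed FPKM of the 38 members in day 7 DMSO cells. At day 19 IFI6, a mitochondrial protein that limits apoptosis, stood second with 110.6 FPKM in DMSO and more than IFITM1 in every day 19 group. At the low end IFI44, IFI44L, IFIT2 and SAMD9 were under 0.1 FPKM in all day 7 groups. Members at 1 FPKM or more numbered 21 in day 7 DMSO cells, 27 in day 19 DMSO cells, 33 with T3 and 32 with T4 at day 19. The summed level of the 38 members was 451.7 and 440.8 FPKM in the day 7 DMSO libraries and 843.9 and 935.5 FPKM in the day 19 DMSO libraries. With T3 at day 19 it was 1566 and 2089 FPKM and with T4 1930 and 1786 FPKM, so all 4 hormone-treated libraries lay above both DMSO libraries.

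**Figure D2:**
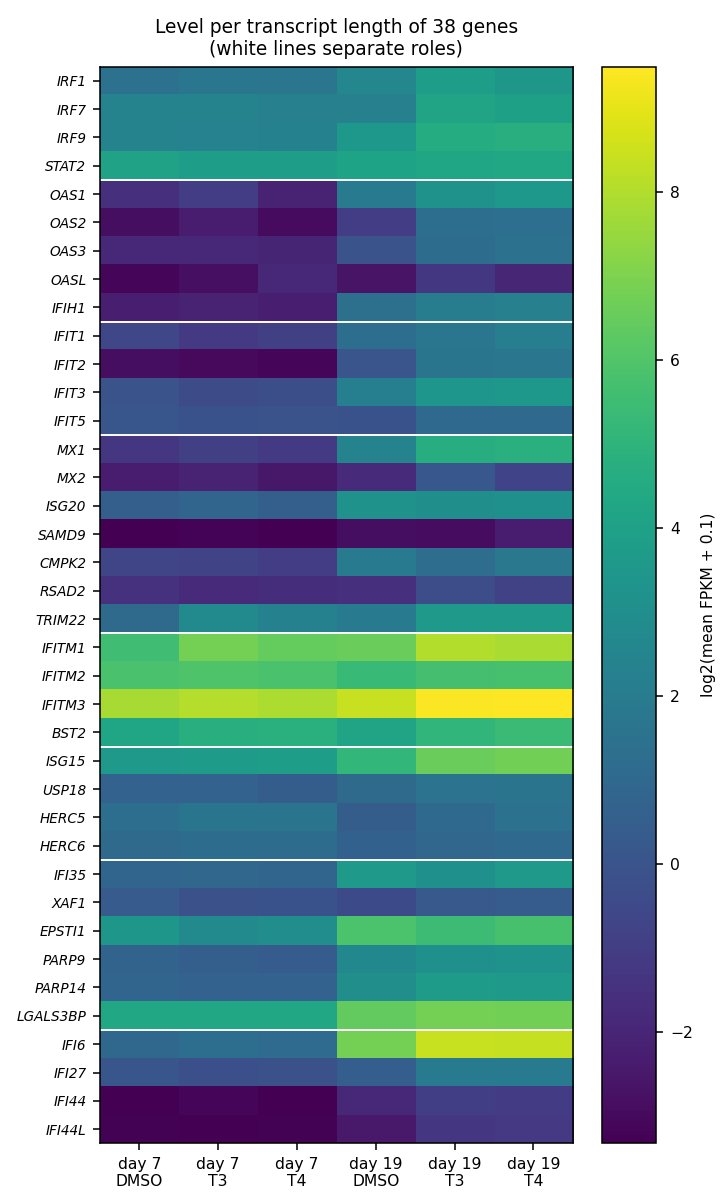
Mean FPKM of the 38 members in the 6 groups, drawn as log2 of FPKM plus 0.1 and ordered by role. IFITM3 is brightest throughout, and most rows brighten from day 7 to day 19 and again from DMSO to the hormone columns at day 19.

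From day 7 to day 19 in DMSO most members rose, among them IFI6, MX1, the OAS genes, IFIH1 and 3 of the 4 IFIT genes. IFIT5 did not pass the test (log2 change 0.19, adjusted p = 0.41, edgeR). Of the 38 members 27 rose and 1 fell (edgeR's quasi-likelihood test, Benjamini-Hochberg adjusted p of at most 0.05 over all genes), while 37.6% of all tested genes rose and 34.9% fell. The members' median log2 change was 1.98, that of all tested genes -0.00. Among the 26 members at 1 CPM or more at day 7 there were 19 that rose and 1 that fell, HERC5. In every fit that left out 1 library 24 of the 28 calls remained, and those of MX2, IFI44, IFI44L and HERC5 did not. HERC5 lost its call without day 7 DMSO replicate 1 (log2 change -0.35, adjusted p = 0.16) and without day 19 DMSO replicate 2 (-0.34, adjusted p = 0.156; edgeR). In bulk RNA a change in the share of a cell type and a change in RNA per cell cannot be told apart.

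IFI6 gave the largest change of a member that reached 1 CPM. It stood at 1.40 and 1.40 CPM at day 7 and at 106.3 and 104.5 CPM at day 19, a 75.2-fold rise (adjusted p = 2.12e-13, edgeR's quasi-likelihood test). IFIT2, which binds AU-rich RNA and restricts translation, went from 0.10 and 0.14 CPM to 3.63 and 4.01 CPM. IFIH1, the sensor MDA5 of long double-stranded RNA, went from 0.48 and 0.24 CPM to 11.3 and 10.4 CPM, a log2 change of 4.89 (SE 0.33). MX1, a dynamin-like GTPase that traps viral nucleocapsids, went from 0.82 and 0.72 CPM to 18.3 and 15.8 CPM, a log2 change of 4.46 (SE 0.28). In none of these 4 genes did the days overlap, but the day 7 levels of IFIT2, IFIH1 and MX1 rest on few reads. IFI44 was at 0 in both day 7 DMSO libraries and rose to a mean of 0.27 CPM, at least 3.78-fold above the limit of 3 counts over the group. SAMD9, not tested, was at 0 in the same libraries and at least 4.62-fold higher at day 19 by the same limit. Such limits cover counting error only.

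The regulators were measured well on both days. IRF1, a transcription factor induced by interferon gamma, rose from 8.23 and 8.90 CPM to 25.4 and 25.5 CPM. IRF9, the DNA-binding part of ISGF3, rose from 7.56 and 7.84 CPM to 21.4 and 22.7 CPM. IRF7, which drives the second wave of interferon genes, did not pass the test, at 9.73 and 8.80 CPM against 10.8 and 10.6 CPM (adjusted p = 0.0892, edgeR). STAT2, the partner of IRF9, rose from 69.6 and 65.8 CPM to 94.6 and 88.1 CPM, a log2 change of 0.43 that was 0.03 (adjusted p = 0.68, edgeR) with scaling by total counts. Limma on FPKM also gave 0.03 (adjusted p = 0.678 with a pseudocount of 0.1). With scaling by total counts XAF1 and IFITM2 were also called lower at day 19, and MX2 and USP18 lost their calls.

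At day 19 both hormones were accompanied by higher levels of most members. With T3 there were 26 of 38 members that rose and 3 that fell, against 25.1% of all tested genes that rose and 27.3% that fell. With T4 there were 25 that rose and 1 that fell, against 21% and 21.9% of all tested genes. Among the 31 members at 1 CPM or more in day 19 DMSO cells 22 rose and 3 fell with T3, and 22 rose and 1 fell with T4. Of the 7 members under 1 CPM there, 4 rose with T3 and 3 with T4. Among these 7, MX2 had 12 and 9 counts and IFI44L 15 and 5 counts in DMSO, and both reached the filter through the hormone-treated libraries. The members' median log2 change was 1.07 with T3 and 1.03 with T4, and that of all tested genes was -0.03 and 0. The 25 members that rose with T4 also rose with T3. Both comparisons use the same DMSO libraries. Without replicate 1 of the T3 group 31 members rose and 2 fell, and without replicate 2 there were 19 that rose and 3 that fell, with a median of 0.59. In every fit that left out 1 library, 21 calls with T3 and 18 calls with T4 remained. For MX1 the log2 change with T3 was 2.46 without T3 replicate 1 and 1.995 without replicate 2, and for OAS2 it was 2.85 and 2.06. For ISG15 the values were 1.62 and 1.04, for BST2 1.20 and 0.55, for IFITM3 1.14 and 0.71 and for IRF9 1.21 and 0.85, in the same order. IRF7 moved little, at 1.92 and 1.86, as did IRF1 at 1.14 and 1.06.

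**Figure D3:**
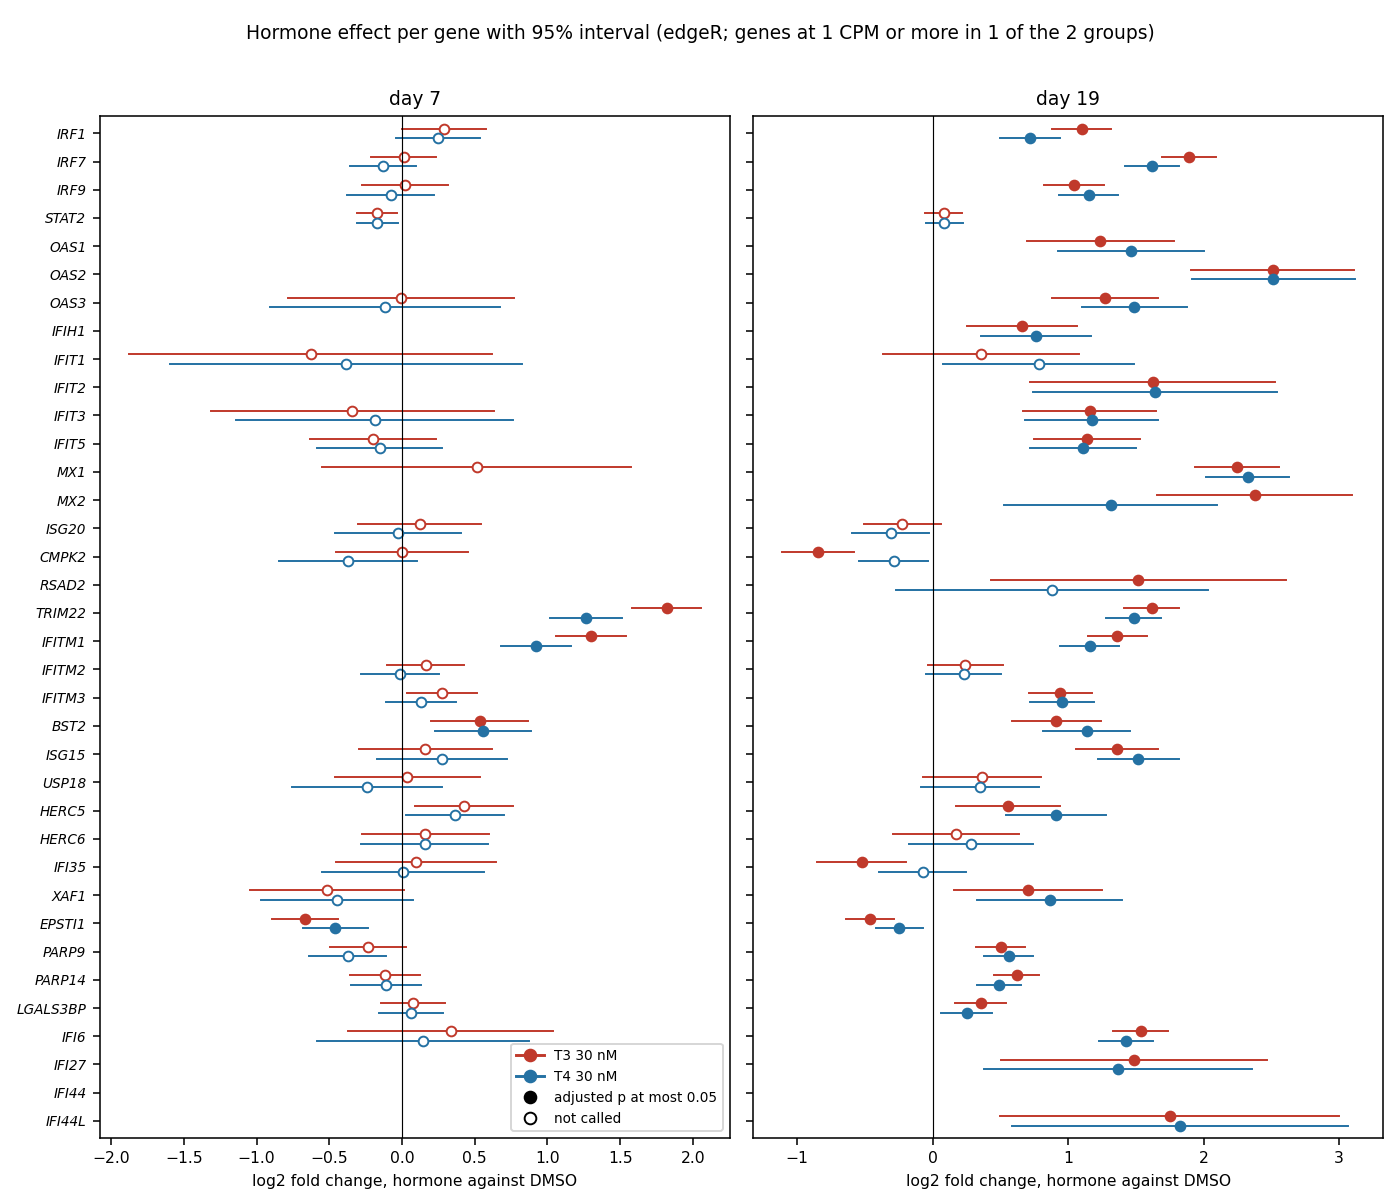
Log2 fold change of T3 (red) and T4 (blue) against DMSO at day 7 (left) and day 19 (right) with 95% intervals, for genes at 1 CPM or more in 1 of the 2 groups. Filled points passed the test. Filled points at day 7 are those of TRIM22, IFITM1, BST2 and EPSTI1, and at day 19 most points lie to the right of 0.

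Among the transcription factors IRF7 changed most. It was at 10.8 and 10.6 CPM with DMSO, 39.0 and 40.5 CPM with T3 and 35.0 and 30.7 CPM with T4. No hormone-treated library overlapped a DMSO library. The rise was 3.71-fold with T3 (adjusted p = 3.91e-10) and 3.07-fold with T4 (adjusted p = 5.1e-09; edgeR). IRF9 rose from 21.4 and 22.7 CPM to 39.6 and 51.1 CPM with T3 and 49.3 and 48.8 CPM with T4. IRF1 rose from 25.4 and 25.5 CPM to 53.1 and 56.1 CPM with T3 and 44.1 and 39.8 CPM with T4. Thus 3 of the 4 transcription factors rose with both hormones. STAT2 did not pass the test, at 94.6 and 88.1 CPM with DMSO, 97.1 and 96.2 CPM with T3 and 100.6 and 93.4 CPM with T4. Its 95% interval for T3 ran from -0.055 to 0.216 on the log2 scale. With scaling by total counts STAT2 passed as higher with T3 (0.16, adjusted p = 0.0463) and T4 (0.22, adjusted p = 0.0101; edgeR), and limma on FPKM plus 0.1 called it with T4 (0.22, adjusted p = 0.0162).

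The sensors and 2-5A synthetases rose in all 4 tested members with both hormones. The OAS enzymes make the short oligoadenylates that activate RNase L, and OAS1, OAS3 and OAS2 lie side by side at chr12:112906962-112933219, chr12:112938474-112973251 and chr12:112978519-113011723 (RefSeq, GRCh38.p14). OAS2 had the largest change of all members at day 19. It stood at 1.82 and 1.34 CPM with DMSO, 6.59 and 11.4 CPM with T3 and 8.67 and 9.38 CPM with T4. All 4 treated libraries were above both DMSO libraries, and the log2 change was 2.51 with T3 (SE 0.28) and 2.51 with T4 (SE 0.28). OAS1 and OAS3 rose by 1.24 and 1.27 log2 units with T3 and by 1.46 and 1.49 with T4. Without T3 replicate 1 the OAS1 value was 1.67, and without T3 replicate 2 it was 0.62, the call being held in both fits. IFIH1 rose less, from 11.3 and 10.4 CPM to 14.1 and 20.2 CPM with T3 and 15.2 and 21.7 CPM with T4. Its T3 call was lost without T3 replicate 2 (log2 change 0.37, adjusted p = 0.134) and without DMSO replicate 2 (0.60, adjusted p = 0.0527), and its T4 call without T4 replicate 2 (0.48, adjusted p = 0.0801; edgeR). OASL was too low for the test, with means of 0.12 CPM in DMSO, 0.73 CPM with T3 and 0.34 CPM with T4.

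The IFIT proteins bind viral RNA and block its translation. Their 4 genes lie together on chromosome 10 within the annotated span of LIPA, and an exon of IFIT2 overlaps LIPA on the opposite strand in GENCODE release 29. IFIT2, IFIT3 and IFIT5 rose with both hormones, and IFIT1 did not pass the test with either. IFIT2 was at 3.63 and 4.01 CPM with DMSO, 7.78 and 15.8 CPM with T3 and 6.11 and 17.7 CPM with T4. IFIT1 was at 13.6 and 10.7 CPM with DMSO, 9.70 and 21.4 CPM with T3 and 13.6 and 28.2 CPM with T4, and its T3 libraries lay below and above the DMSO libraries. Replicate 2 was the higher library for both genes in both hormone groups, by 1.13 and 1.04 log2 units for IFIT1 in T3 and T4. IFIT1 passed the test without T3 replicate 1 (log2 change 0.82, adjusted p = 0.0346) and without T4 replicate 1 (1.21, adjusted p = 0.00915; edgeR). With T4 it also passed under scaling by total counts (0.91, adjusted p = 0.0364) and in the fit with a replicate block (0.69, adjusted p = 0.0374). IFIT2 lost its T3 call without T3 replicate 2 (adjusted p = 0.0703) and its T4 call without T4 replicate 2 (adjusted p = 0.178). IFIT5 varied little between libraries and rose by 1.14 and 1.11 log2 units with T3 and T4.

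Of the MX GTPases and other effectors, MX1, MX2 and TRIM22 rose with both hormones and RSAD2 with T3. MX1 was at 18.3 and 15.8 CPM with DMSO, 68.0 and 93.8 CPM with T3 and 85.1 and 85.9 CPM with T4. Every treated library was above both DMSO libraries, and the rise was 4.75-fold with T3 and 5.01-fold with T4 (adjusted p = 6.88e-09 and 9.99e-09, edgeR). Most of its FPKM came from 1 of its transcripts, at a mean of 21.3 of 25.4 FPKM with T3. MX2, which blocks nuclear entry of retroviruses, was low, at 0.73 and 0.55 CPM with DMSO, 3.23 and 3.43 CPM with T3 and 2.05 and 1.14 CPM with T4. Its T4 call was lost without T4 replicate 1 (log2 change 0.83, adjusted p = 0.146) and without DMSO replicate 2 (1.13, adjusted p = 0.0692; edgeR). TRIM22, a ubiquitin ligase of the TRIM family, rose from 12.7 and 14.7 CPM to 39.3 and 44.8 CPM with T3 and 39.8 and 37.0 CPM with T4. RSAD2, or viperin, which makes a chain-terminating nucleotide, had means of 0.97, 2.79 and 1.79 CPM in DMSO, T3 and T4, and its T3 call was lost without T3 replicate 2 (adjusted p = 0.28) and without either DMSO library (adjusted p = 0.0758 and 0.0748; edgeR). CMPK2, a mitochondrial nucleotide kinase whose gene overlaps RSAD2 on the opposite strand, moved the other way with T3. Its means were 12.7 ± 0.88 CPM in DMSO, 7.05 ± 0.23 CPM with T3 and 10.4 ± 0.09 CPM with T4 (SD, n = 2). Its log2 change was -0.85 with T3 (adjusted p = 3.99e-05) and -0.29 with T4 (adjusted p = 0.0652; edgeR). ISG20, an exonuclease, did not pass the test, with means of 17.9, 15.4 and 14.5 CPM.

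Membrane restriction factors act at virus entry or exit. IFITM1, IFITM3 and BST2 rose with both hormones and IFITM2 did not pass the test. IFITM1, at the cell surface, was at 72.1 and 83.9 CPM with DMSO, 176.0 and 225.6 CPM with T3 and 181.0 and 167.7 CPM with T4. IFITM3 rose from 237.5 and 279.5 CPM to 424.3 and 570.3 CPM with T3 and 529.5 and 473.0 CPM with T4. IFITM2 was at 30.2 and 39.2 CPM with DMSO, 35.1 and 46.8 CPM with T3 and 42.7 and 38.6 CPM with T4. IFITM2 passed with T3 without T3 replicate 1 (log2 change 0.43, adjusted p = 0.00782) and with both hormones without DMSO replicate 2 (0.44 and 0.43, adjusted p = 0.0175 and 0.0245; edgeR). It also passed with T4 under scaling by total counts (0.36, adjusted p = 0.0378). The 3 IFITM genes on chromosome 11 are related in sequence, and RSEM divides reads that fit more than 1 of them, so the split of such reads among them is uncertain. BST2, or tetherin, which holds budding virions at the membrane, rose from 20.1 and 22.0 CPM to 30.9 and 48.3 CPM with T3 and 45.4 and 47.2 CPM with T4. All treated libraries of IFITM1, IFITM3 and BST2 were above both DMSO libraries.

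In the ISG15 system, ISG15 itself, a ubiquitin-like modifier, rose from 26.5 and 27.8 CPM to 55.8 and 83.7 CPM with T3 and 80.2 and 75.1 CPM with T4. That was 2.57-fold with T3 and 2.87-fold with T4 (adjusted p = 1.18e-06 and 6.35e-07, edgeR). HERC5, its ligase in human cells, rose by 0.56 and 0.91 log2 units, and its T3 call was lost without T3 replicate 2 or DMSO replicate 2 (adjusted p = 0.156 and 0.129, edgeR). USP18, which removes ISG15 and restrains the type I receptor, and HERC6 did not pass the test with either hormone. USP18 means were 4.97, 6.39 and 6.35 CPM in DMSO, T3 and T4, and HERC6 means were 6.79, 7.64 and 8.26 CPM. Both passed with T3 when T3 replicate 1 was left out (USP18 log2 change 0.60, adjusted p = 0.0257, and HERC6 0.53, adjusted p = 0.018; edgeR).

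The remaining regulators were divided. PARP9 and PARP14, members of the ADP-ribosyltransferase family, rose by 0.50 and 0.62 log2 units with T3 and by 0.56 and 0.49 with T4. An exon of PARP9 overlaps DTX3L on the opposite strand. LGALS3BP, a secreted glycoprotein, rose by 0.35 and 0.25 log2 units, and XAF1 by 0.70 and 0.86. Without DMSO replicate 1 the XAF1 calls were lost (adjusted p = 0.191 with T3 and 0.0994 with T4), as they were without T3 replicate 2 (0.236) and without T4 replicate 1 (0.091). The T4 call of LGALS3BP was lost without DMSO replicate 1, T4 replicate 1 or T4 replicate 2 (adjusted p = 0.156, 0.151 and 0.059; edgeR). The listed XAF1 transcripts were all annotated as noncoding. EPSTI1, an interferon response gene first found in epithelial cells beside stroma, fell. It was at 213.2 and 224.3 CPM with DMSO, 140.8 and 177.4 CPM with T3 and 185.1 and 184.0 CPM with T4, so every treated library was below both DMSO libraries. Its log2 change was -0.46 with T3 (adjusted p = 0.000252) and -0.25 with T4 (adjusted p = 0.0247; edgeR), and the T4 call was not held with scaling by total counts (-0.12, adjusted p = 0.304) or without DMSO replicate 2, T4 replicate 1 or T4 replicate 2 (adjusted p = 0.11, 0.0851 and 0.0792). IFI35 fell by 0.52 log2 units with T3, a call that was lost without T3 replicate 1 (-0.27, adjusted p = 0.125; edgeR).

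Among the small induced genes IFI6 rose from 106.3 and 104.5 CPM to 284.0 and 327.2 CPM with T3 and 307.0 and 260.0 CPM with T4. IFI27, a mitochondrial protein, and IFI44L stayed low but passed the test with both hormones. IFI44L was at 0.91 and 0.30 CPM with DMSO, 1.08 and 3.03 CPM with T3 and 2.63 and 1.71 CPM with T4. IFI27 means were 0.91, 2.55 and 2.36 CPM, divided among 10 listed transcripts. Both genes lost the T3 call without T3 replicate 2 (adjusted p = 0.479 for IFI27 and 0.317 for IFI44L, edgeR), and IFI27 lost its T4 call in each of the 4 fits that left out a library. Both calls of IFI44L were lost without DMSO replicate 2 (adjusted p = 0.151 and 0.142), its T4 call without T4 replicate 1 (0.136), and the T3 call of IFI27 without DMSO replicate 1 (0.0805; edgeR). IFI44 did not pass, at means of 0.27, 0.79 and 0.71 CPM.

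**Figure D4:**
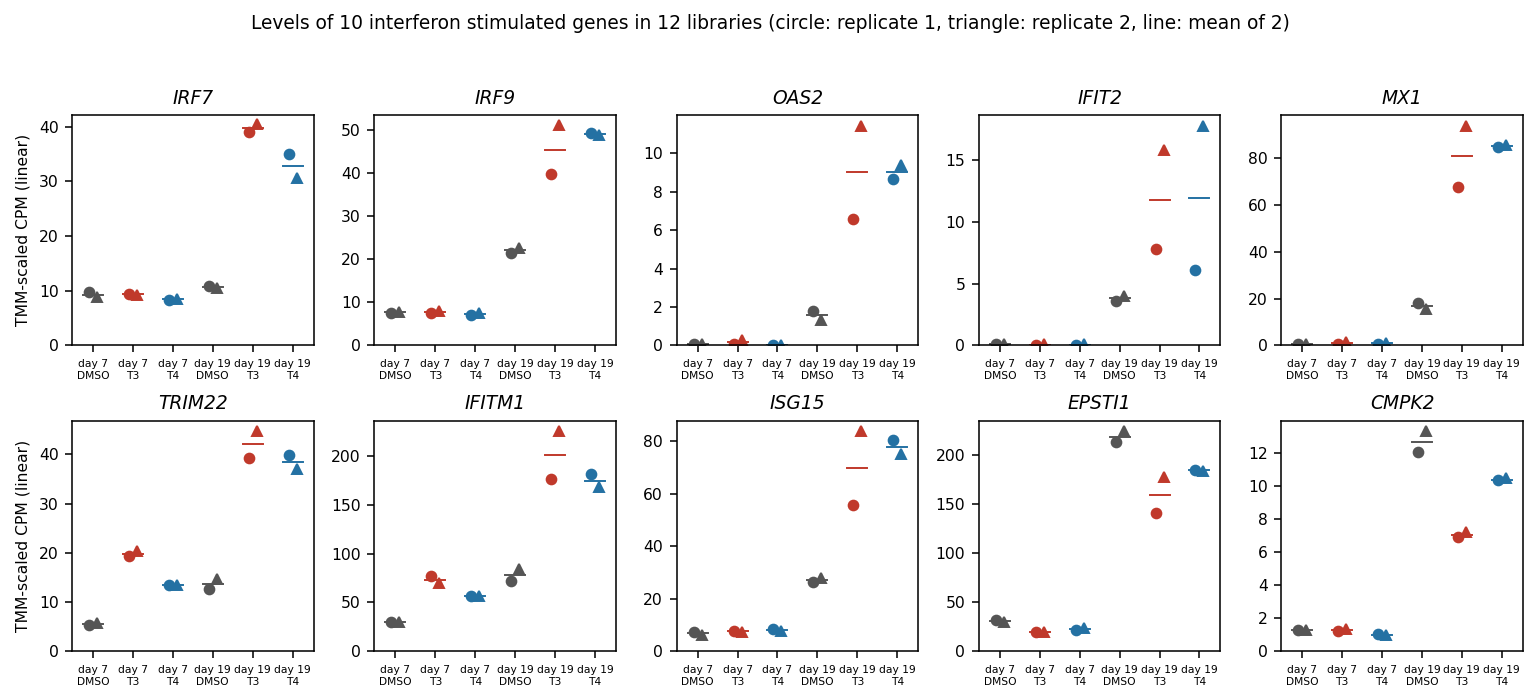
TMM-scaled CPM of 10 members in the 12 libraries on linear axes from 0, with circles for replicate 1, triangles for replicate 2 and a line at the mean. TRIM22 and IFITM1 are higher with hormone on both days, IRF7, IRF9, OAS2, IFIT2, MX1 and ISG15 at day 19, and EPSTI1 is lower with hormone on both days.

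At day 7 few members changed. With T3 there were 3 of 38 that rose and 1 that fell, against 9.43% and 6.54% of all tested genes. With T4 there were also 3 that rose and 1 that fell, against 3.9% and 2.52%. Read against those shares, the counts are not a result about the list. The same 4 genes made up both sets: TRIM22, IFITM1 and BST2 rose and EPSTI1 fell, and all 4 moved the same way at day 19. The 2 sets share their DMSO libraries.

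TRIM22 was at 5.39 and 5.82 CPM with DMSO, 19.3 and 20.4 CPM with T3 and 13.5 and 13.4 CPM with T4 at day 7. It rose 3.53-fold with T3 (adjusted p = 8.27e-08) and 2.40-fold with T4 (adjusted p = 1.38e-05; edgeR). IFITM1 was at 29.7 and 29.8 CPM, 77.0 and 69.6 CPM and 56.5 and 56.1 CPM in the same order, so in both genes the 3 groups were separate and T4 lay between DMSO and T3. BST2 was at 18.8 and 16.2 CPM with DMSO, 25.3 and 25.5 CPM with T3 and 26.2 and 25.4 CPM with T4. Both BST2 calls were lost in every fit that left out a library of the groups compared. EPSTI1 was at 31.6 and 30.2 CPM with DMSO, 19.3 and 19.6 CPM with T3 and 21.6 and 23.4 CPM with T4. Its T4 call was lost in each of the 4 fits that left out a library, at adjusted p of 0.0648 to 0.164 (edgeR).

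The factors that drive these genes did not pass the test at day 7. IRF7 was at 9.73 and 8.80 CPM with DMSO, 9.41 and 9.29 CPM with T3 and 8.30 and 8.58 CPM with T4. IRF9 was at 7.56 and 7.84 CPM, 7.55 and 8.07 CPM and 7.08 and 7.51 CPM in the same order. Their 95% intervals for T3 ran from -0.21 to 0.24 and from -0.28 to 0.32 on the log2 scale. IRF1 was at 8.23 and 8.90 CPM, 9.21 and 11.7 CPM and 11.4 and 8.97 CPM, and STAT2 at 69.6 and 65.8 CPM, 62.4 and 57.9 CPM and 61.2 and 59.3 CPM. STAT2 was called lower in the fit of day 7 libraries alone with T3 (-0.18, adjusted p = 0.0096) and T4 (-0.17, adjusted p = 0.0205; edgeR). With T3 it was also called lower under scaling by total counts (-0.21, adjusted p = 0.0402) and in the fit with a replicate block (-0.17, adjusted p = 0.0305). ISG15 was at 7.46 and 6.25 CPM, 7.84 and 7.48 CPM and 8.70 and 7.90 CPM. IFITM3 was at 133.5 and 129.8 CPM, 156.6 and 161.9 CPM and 145.0 and 143.2 CPM, with no overlap of treated and DMSO libraries and no call (adjusted p = 0.117 with T3, edgeR). In the fit of day 7 libraries alone IFITM3 passed with both hormones (adjusted p = 1.99e-05 and 0.019, edgeR). IFITM2 was at 36.0 and 36.0 CPM, 42.0 and 38.6 CPM and 37.2 and 34.1 CPM. MX1, at 0.72 to 1.47 CPM, and IFIT1, at 1.23 to 2.69 CPM, were low in all 6 day 7 libraries.

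The difference of the hormone effect between the days was tested as an interaction. The T3 effect was more positive at day 19 for 15 members and more negative for 1, CMPK2, against 17.1% and 20.9% of all tested genes. The T4 effect was more positive for 12 members and more negative for 0 (0 at an unadjusted p of 0.05 as well, in edgeR, and 0 with DESeq2 and limma), against 12.4% and 15.3%. The difference with the smallest adjusted p among the members was that of IRF7, 1.88 log2 units for T3 (adjusted p = 1.41e-07) and 1.75 for T4 (adjusted p = 7.96e-07; edgeR). IRF9, ISG15, IFITM3, IFIT5, PARP9 and PARP14 passed for both hormones in every fit that left out a library, as IRF7 did, and IRF1 did for T3. The calls of MX1, IFI6, OAS3, STAT2 and XAF1 for both hormones, and of MX2, IFIT3 and CMPK2 for T3, were lost in at least 1 such fit. CMPK2 was lost in 3 of them (adjusted p of 0.0521 to 0.11, edgeR) and with DESeq2 (-0.80, adjusted p = 0.141). For the 2 genes with the clearest day 7 change the interaction did not pass: it was -0.20 (adjusted p = 0.309) for TRIM22 and 0.06 (adjusted p = 0.775) for IFITM1 with T3. The T4 values were 0.22 and 0.24 (adjusted p = 0.315 and 0.274, edgeR). Calls numbered 9 to 20 for T3 and 8 to 14 for T4 in fits that left out a library.

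T4 and T3 at the same 30 nM were compared directly on each day. At day 7 only TRIM22 passed, lower with T4 by -0.56 log2 units (adjusted p = 0.0193, edgeR), against 0.0387% of all tested genes higher and 0.326% lower with T4. That call was lost in each of the 4 fits that left out a library (adjusted p of 0.134 to 0.274). At day 19 1 member was higher with T4 and 3 were lower, against 7.42% and 8.31% of all tested genes. CMPK2 was higher by 0.56, and MX2, IRF1 and IRF7 were lower by -1.06, -0.38 and -0.27 log2 units. For most members the difference was small beside its interval, for instance 0.08 with an interval of -0.18 to 0.34 for MX1 and -0.11 with -0.30 to 0.08 for IFI6. A p that misses the threshold does not show that the 2 hormones act alike.

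This comparison moved with the T3 library left out. Without T3 replicate 2 there were 11 members higher with T4 and 0 lower, and without T3 replicate 1 there were 0 higher and 3 lower. ISG15 was higher with T4 by 0.48 (adjusted p = 0.00105) and OAS1 by 0.84 (adjusted p = 0.00229) without T3 replicate 2, against 0.15 and 0.22 with all libraries (edgeR). IRF1, IRF7, MX2 and CMPK2 moved little, with values of -0.34, -0.25, -1.02 and 0.59 without that library. IRF1 lost its call without T3 replicate 2 or T4 replicate 2, IRF7 and MX2 without either T3 library or T4 replicate 2, and CMPK2 without T3 replicate 1 (adjusted p = 0.051, edgeR). Of the 35 members at 1 CPM or more 23 had opposite signs in the fits without the one and without the other T3 library.

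**Figure D5:**
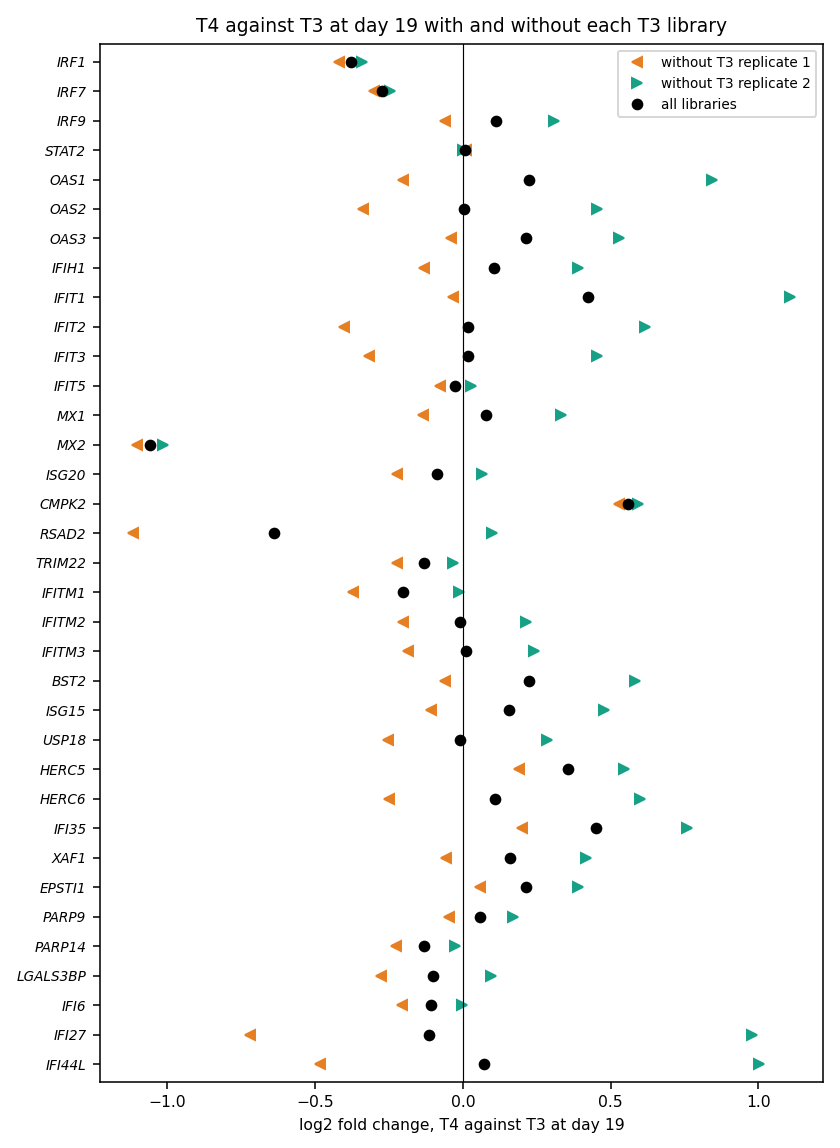
Log2 fold change of T4 against T3 at day 19 for members at 1 CPM or more, with all libraries (black), without T3 replicate 1 (orange) and without T3 replicate 2 (green). For 23 of 35 genes the orange and green points lie on opposite sides of 0, whereas IRF1, IRF7, MX2 and CMPK2 keep their side.

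Genes that could feed the response were listed by role. Of 21 interferon genes 11 were in the tables and none reached the expression filter. Their summed counts were 3 and 4 in the day 19 DMSO libraries, 22 and 22 with T3 and 17 and 19 with T4, and 5 to 10 in the day 7 libraries. IFNL1, a type III interferon singled out after its values were seen, had 5 and 7 counts with T3, 5 and 9 with T4 and 0 and 1 with DMSO at day 19. No test was made at this depth. A list of 15 genes held receptors, kinases and STATs together with the factors IRF2, IRF3, IRF5 and IRF8. Of these 15 genes 14 rose from day 7 to day 19, against 37.6% of all tested genes. At day 19 there were 7 that rose and 4 that fell with T3 (25.1% and 27.3% of all tested genes) and 5 that rose and 5 that fell with T4 (21% and 21.9%), with list medians of -0.07 and -0.01 log2 units. IRF3, the factor that first responds to RNA sensors, rose by 0.42 and 0.39 log2 units with T3 and T4. Other genes of this list had lower counts with hormone. The receptor gene IFNLR1 had 338 and 286 counts with DMSO, 234 and 240 with T3 and 243 and 235 with T4 at day 19. IFNAR2 had 469 and 519, 351 and 397, and 447 and 446 counts in the same order. IFNGR2 had 1488 and 1535, 1162 and 1219, and 1331 and 1294 counts. JAK2 had 268 and 238, 158 and 183, and 182 and 174 counts. Of 10 negative regulators 4 rose with T3 and 5 with T4, and 1 fell with each. SOCS3 rose by 1.41 and 0.92, PIAS1 by 1.24 and 0.82 and SOCS1, which binds JAK kinases, by 1.22 and 1.05 log2 units.

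Of 17 tested nucleic acid sensors and adapters 5 rose and 2 fell with T3, and 4 rose and 3 fell with T4 at day 19. These counts are near the shares over all tested genes, 25.1% and 27.3% with T3 and 21% and 21.9% with T4. TBK1, the kinase that activates IRF3, rose by 0.67 and 0.34, and IFI16, a DNA sensor, by 0.82 and 1.25, while the adapter TICAM1 fell by 0.43 and 0.54 log2 units. Of 45 other interferon induced genes 41 were tested, and 29 rose and 4 fell with T3 and 27 rose and 5 fell with T4. DDX60, a helicase, rose by 2.34 and 2.45, SP100, a nuclear body protein, by 1.49 and 1.38, and WARS1, a tRNA synthetase, by 1.12 and 0.83. SAMHD1, which depletes nucleotides, fell by 1.60 and 0.99 at day 19 and rose by 1.07 and 0.86 at day 7. At day 7, 7 of the 41 tested genes of this list rose and 1 fell with T3, against 9.43% and 6.54% of all tested genes. With T4 3 of them rose and 1 fell, against 3.9% and 2.52%. IDO1, a tryptophan-degrading enzyme, rose by 1.70 and 1.09 at day 7. In the day 19 T3 group 29 of 40 of these genes were higher in replicate 2 than in replicate 1, with a median difference of 0.12 log2 units, less than that of the 38 members.

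Markers of cell types were read beside these results. The 6 hepatocyte and hepatoblast markers all fell with both hormones at day 19, against 27.3% of all tested genes with T3 and 21.9% with T4. Their summed levels were 53970 and 58600 CPM in DMSO, 1596 and 2186 CPM with T3 and 5244 and 5802 CPM with T4. AFP, the fetal serum protein, was the main part of that sum. ALB, the defining serum protein of mature hepatocytes, was at 17.8 and 20.8 CPM in day 19 DMSO cells and at 0.90 to 3.14 CPM with hormone, so this defining marker was low in all day 19 groups beside AFP. The 6 mesenchymal markers summed to 305.9 and 314.4 CPM in day 7 DMSO cells, 6347 and 6074 CPM in day 19 DMSO cells and 2094 to 3460 CPM with hormone at day 19. The 4 intestinal markers summed to 65.3 and 65.4 CPM at day 7 and 2100 and 1934 CPM at day 19 in DMSO, and to 381.5 to 973.1 CPM with hormone at day 19, where all 4 fell with both hormones. All 6 mesenchymal and all 4 intestinal markers rose from day 7 to day 19 in DMSO, against 37.6% of all tested genes. So did 5 of the 6 hepatocyte and hepatoblast markers, whose sum was 3068 and 3116 CPM at day 7. Of the 5 endothelial markers 4 fell with each hormone at day 7, against 6.54% of all tested genes with T3 and 2.52% with T4. The sums of these 5 markers went from 74.8 and 75.4 CPM to 42.9 to 45.1 CPM. At day 19, 1 endothelial marker rose and 3 fell with T3, and 1 rose and 2 fell with T4. The endothelial sums at day 19 were 108.1 and 94.55 CPM with DMSO, 117.6 and 116.1 CPM with T3 and 102.1 and 124.6 CPM with T4. At day 7, 4 of 5 pluripotent markers rose with each hormone, against 9.43% of all tested genes with T3 and 3.9% with T4. POU5F1 had means of 172 CPM in DMSO, 576 with T3 and 405 with T4 at day 7. Of the 10 leukocyte and macrophage markers PTPRC, CD14, SPI1 and CD3E were at 0 to 0.36 CPM in all 12 libraries, and of the 4 plasmacytoid and dendritic markers CLEC4C and LILRA4 were at 0 to 0.29 CPM. ITGAX was at 0.85 and 0.91 CPM with DMSO, 0.84 and 2.15 CPM with T3 and 2.11 and 2.22 CPM with T4 at day 19, and rose with T4 (log2 change 1.29, adjusted p = 0.0137, edgeR). IL3RA was at 2.65 to 4.85 CPM in all 12 libraries. The summed level of that leukocyte list was 141.6 and 142.8 CPM in day 19 DMSO cells and 164.0 to 214.1 CPM with hormone. CD68 made up most of it in DMSO, at a mean of 84.9 CPM, and fell by 1.77 and 1.54 log2 units with T3 and T4. CSF1R had means of 44.7 CPM in DMSO, 166.6 with T3 and 126.4 with T4. The part of these shifts in the members' changes was not tested.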

How the data were processed

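Total RNA of 12 libraries was sequenced. Per the submitters' processing notes the build was hg38 and the tools were HISAT, Bowtie2 and RSEM, with versions and strand of counting not given in the sources used here. The authors deposited, for each library, transcript tables of expected counts (reads assigned by RSEM, not normalized) and FPKM values (scaled to length and mapped reads), listing transcripts from 0.01 FPKM. The deposited expected counts and FPKM values were summed per Entrez gene with pandas 2.3.3 in Python 3.11.15, and counts were rounded. Symbols were matched for 23801 of 23922 genes.

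The members and all lists were chosen with earlier results of these data known. Tests used edgeR 4.0.16 in R 4.3.3: filterByExpr on 6 groups, TMM, 1 quasi-likelihood fit of all 12 libraries with 6 residual degrees of freedom, Benjamini-Hochberg over 18101 genes, and calls at an adjusted p of at most 0.05. Intervals are 95%. On simulated data for T3 against DMSO at day 19 with 18101 genes, 83% of 88 genes changed 2-fold and 90.2% of 112 genes changed 4-fold were recovered. The simulation gave every gene the same coefficient of variation between replicates, 5.42%, and changed 200 genes. In the real comparison 9472 genes were called and the spread differed between groups, so these shares do not give the power of the real test. Values per library were given for 11 members fixed by role and for the 4 largest called changes among members at 1 CPM in a group mean of each comparison with DMSO or between days, and other members by means, ranges or counts. Alternatives were DESeq2 1.42.0, no filter, limma 3.58.1 on log2 of the deposited FPKM plus 0.1 or 1, libraries of 1 day, a replicate block, leaving out each library, and, chosen after seeing the data, scaling by total counts. A group at 0 was bounded by 3 counts over the group. Overlaps were read from RefSeq GRCh38.p14 and GENCODE release 29. In that GENCODE release exons also overlap on the same strand for IFIT2 and AL353751.1, IRF9 and AL136295.5, TRIM22 and OR56B1, and IFITM1 and IFITM2. Some items of the gene lists are not reported here.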

Additional observations from a re-analysis of the deposited data

Results flagged for a closer look

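The hormone effect differed between day 7 and day 19 by the interaction test (edgeR, adjusted p of at most 0.05 over all genes) in 16 members for T3 and 12 for T4. Values are the effect at day 19 minus the effect at day 7 in log2 units. For T3 the transcription factors gave 1.88 for IRF7, 1.02 for IRF9, 0.81 for IRF1 and 0.25 for STAT2. The effectors gave 1.73 for MX1, 2.01 for MX2, 1.28 for OAS3, 1.5 for IFIT3, 1.34 for IFIT5, 0.67 for IFITM3, 1.20 for ISG15 and 1.20 for IFI6. The regulators gave 1.22 for XAF1, 0.73 for PARP9 and 0.73 for PARP14, and CMPK2 gave -0.84. For T4 the values were 1.75 for IRF7, 1.23 for IRF9, 0.26 for STAT2, 1.98 for MX1, 1.61 for OAS3, 1.26 for IFIT5, 0.83 for IFITM3, 1.24 for ISG15 and 1.28 for IFI6. XAF1 gave 1.31, PARP9 0.94 and PARP14 0.60 with T4. MX1 and MX2 were near or under 1 CPM in the day 7 libraries, so their differences rest on few reads.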

How the results depend on the processing

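No member's called value changed sign under any alternative run. Counts of called members that moved by more than 1.5 times are given here, and the cause was not tested. Fits of the libraries of 1 day gave 7 for T3 and 7 for T4 against DMSO at day 7 (4 and 4 with all libraries), and for T4 against T3 gave 3 at day 7 (1) and 2 at day 19 (4). For T4 against T3 at day 7 limma gave 0 with either pseudocount, and at day 19 DESeq2 gave 1 and limma 2 and 2. For the T4 effect between the days limma on log2 of FPKM plus 1 gave 20 (12). Leaving out 1 library gave 2 to 2 for T4 at day 7, 0 to 0 for T4 against T3 at day 7, 2 to 11 for T4 against T3 at day 19 (11 without T3 replicate 2), 9 to 20 for the T3 effect between the days (9 without day 7 DMSO replicate 1, 20 without T3 replicate 1 of day 19) and 8 to 14 for the T4 effect (8 without day 7 DMSO replicate 1). With these leave-one-out fits the count was 22 to 33 for T3 and 21 to 24 for T4 at day 19, 25 to 27 between the days and 3 to 3 for T3 at day 7. With scaling by total counts, chosen after seeing the data, 50% rather than 75% of the members called with T3 at day 7 and 50% rather than 25% of those called between T4 and T3 at day 19 were higher. Calls of all genes then were higher for 47.9% rather than 59.0% with T3 at day 7, 62.5% rather than 47.2% between T4 and T3 at day 19, and 57.9% rather than 45.0% and 68.2% rather than 44.8% for the T3 and T4 effects between the days. The replicate numbers of the titles share only a number: deviations of same-numbered libraries correlated at -0.078 to 0.125 across genes. A fit with the replicate block gave 29 calls for T3 and 27 for T4 at day 19, 5 and 4 at day 7, and 28 between the days. The 12 members under 1 CPM at day 7 in DMSO rest on few reads there.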
